A study of Mus musculus with 36 samples.

Results

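The genes described are the 9 rows of the gene count table that encode costimulatory, checkpoint and adhesion proteins of the macrophage surface: Cd40, Cd80, Cd86, Cd274, Pdcd1lg2, Icam1, Cd44, Cd69 and Cd72. They were chosen with earlier results of these data known and taken by gene name from a table of 54532 genes, and all 36 libraries were used. BMDMs (bone marrow-derived macrophages) were grown for 7 days with MCSF, the growth factor of macrophages, from C57BL/6 females of 13 to 17 weeks. WT cells came from Bmal1 flox/flox mice without Cre (n = 3 replicates), and KO cells from flox/flox mice that carry Cre under the LysM promoter, which is active in myeloid cells (n = 6 replicates), so both genotypes carry the floxed alleles and deletion in KO depends on the Cre. Cells of each genotype were kept for 6 h in vehicle (DMSO), 100 µM CCM (Core Circadian Modulator, a ligand of the PASB domain of the clock protein BMAL1), 100 nM LPS or LPS+CCM, and LPS, a component of the outer wall of Gram-negative bacteria, was used to stimulate them. Levels are given as CPM, the read pairs on a gene scaled to the size of its library with TMM factors, and a gene is called where its p from edgeR's quasi-likelihood test, adjusted by Benjamini-Hochberg over all genes tested, was 0.05 or less.

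Macrophages that sense LPS through Toll-like receptor 4 place on their surface the proteins with which they meet T cells. CD80 and CD86 bind CD28 and CTLA-4 on T cells, CD40 is the receptor through which CD40 ligand on T cells signals back into the macrophage, and PD-L1 (Cd274) and PD-L2 (Pdcd1lg2) engage the inhibitory receptor PD-1. ICAM-1 is a ligand of the integrin LFA-1, CD44 binds hyaluronan, CD69 is a C-type lectin known as an early activation marker of leukocytes, and CD72 is an inhibitory C-type lectin best known from B cells.

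Promoter sequences from RefSeq were found for 6 of the 9 genes, Cd72, Cd80, Cd274, Pdcd1lg2, Icam1 and Cd44. In the 250 bases before each start site, 4 motifs were searched on both strands: the E-box CACGTG bound by BMAL1 with CLOCK, the STAT motif GAS (TTCNNNGAA), the core of the interferon-stimulated response element and the NF-kB consensus. Among all 32851 promoters of the table, 6.02% hold the E-box, 7.02% the GAS motif, 2.98% the interferon core and 3.90% the NF-kB consensus in this window. Of the 6 windows, 0 hold CACGTG or the interferon core. Icam1 holds 1 GAS match, from 42 to 34 bases before the start, and Pdcd1lg2 holds 1 NF-kB match from 244 to 235 bases before it, found on either strand, while Cd72, Cd80, Cd274 and Cd44 hold no match. Near matches are left out by this rule. The Icam1 window holds tggaaattcc, which misses the NF-kB pattern only at its first base. Shown here are both windows with a match, with Cd274, whose level over the 36 libraries was the one most alike to that of Icam1 among the 9 genes. Capitals mark the matches, all 3 sequences read 5′ to 3′ on the plus strand of GRCm38.p6, and they end on the base before the RefSeq start. The windows lie at chr9:21015690-21015939 (Icam1), chr19:29410669-29410918 (Pdcd1lg2) and chr19:29367188-29367437 (Cd274).
Icam1: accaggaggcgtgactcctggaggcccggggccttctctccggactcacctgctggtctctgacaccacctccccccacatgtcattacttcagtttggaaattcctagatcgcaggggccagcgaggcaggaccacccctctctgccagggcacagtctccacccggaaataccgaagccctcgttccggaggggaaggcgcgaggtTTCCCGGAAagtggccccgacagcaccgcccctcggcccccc
Pdcd1lg2: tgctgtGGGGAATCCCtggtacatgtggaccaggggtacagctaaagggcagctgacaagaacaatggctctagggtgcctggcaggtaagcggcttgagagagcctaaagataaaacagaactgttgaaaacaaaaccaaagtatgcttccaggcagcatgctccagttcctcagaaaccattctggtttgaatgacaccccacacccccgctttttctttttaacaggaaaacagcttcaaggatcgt
Cd274: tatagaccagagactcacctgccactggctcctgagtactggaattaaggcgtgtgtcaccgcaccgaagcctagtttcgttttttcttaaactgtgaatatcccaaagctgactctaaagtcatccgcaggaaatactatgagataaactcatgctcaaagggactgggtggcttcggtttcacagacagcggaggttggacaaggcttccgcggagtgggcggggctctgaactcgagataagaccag

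Libraries held from 13469262 to 28288923 read pairs on genes. The transcript of the targeted gene Bmal1 (Arntl) lay between 7.28 and 12.9 CPM in the 12 WT libraries and between 2.13 and 10.7 CPM in the 24 KO libraries, so the genotypes overlap, and the 4 libraries of KO replicate 2 (7.74 to 10.7 CPM) lay within the WT range. This count sums all exons of the gene and does not check the deletion itself. All 8 macrophage markers had over 1 CPM in every group. KO replicate 6 stood apart under all 4 treatments, with 15993 to 17308 genes detected where every other library had at least 19375, and with 5.89 to 7.98% of counts on genes under 1000 bases. In 2 further KO libraries, LPS+CCM replicates 2 and 5, that share was 6.23 and 7.89%, whereas it was 3.09 to 4.79% in the other 30. KO results are therefore also given without replicate 6. The summed level of 8 neutrophil markers was 1148 to 1202 CPM in KO replicate 6 and 438 to 700 CPM in WT libraries. Ly6g was at most at 0.58 CPM in any library. In WT, 8 fibroblast markers summed to 530 to 1487 CPM with vehicle and 365 to 880 CPM with CCM. With LPS their sum was 607 to 842 CPM, and with LPS+CCM 702 to 793 CPM. In KO it was 566 to 1522 CPM with vehicle and 339 to 1293 CPM with CCM. With LPS it was 555 to 1850 CPM in KO, and with LPS+CCM 385 to 1415 CPM. In KO replicate 6 it was 385 to 720 CPM. The part of other cells in the values of KO replicate 6, and of fibroblasts in those of any library, was not tested.

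The genes are known by position and annotation on the mm10 build of the deposited table. Cd40 lies on chromosome 2 from 165055627 to 165072948 on the plus strand, Cd86 and Cd80 on chromosome 16 (36603869 to 36666081, minus, and 38455561 to 38496335, plus), and Cd274 and Pdcd1lg2 side by side on the plus strand of chromosome 19 (29367455 to 29388095 and 29410919 to 29471157). Icam1 lies on chromosome 9 (21015985 to 21028817, plus), Cd44 on chromosome 2 (102811141 to 102901665, minus), Cd69 on chromosome 6 (129267325 to 129275436, minus) and Cd72 on chromosome 4 (43446462 to 43454628, minus). All 9 are protein-coding. Cd72 overlaps Tesk1 on the opposite strand, which reached 84.2 CPM, and since the sources used here do not give the strand setting used, the split of reads between both genes is uncertain. Icam1 overlaps Gm47079 and Cd44 overlaps Gm23731, which reached at most 0.615 and 0.212 CPM in any library, and the other 6 genes overlap none.

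Before stimulation the 9 genes ranged from abundant to barely detected. Per length, the level in WT vehicle libraries was highest for Cd44, at 64.6 ± 1.20 CPM per kilobase (SD, n = 3), followed by Cd72 at 54.3 ± 6.99 and Cd274 at 15.5 ± 0.433 CPM per kilobase. Icam1 was next at 7.59 ± 0.471, then Cd86 at 2.28 ± 0.282 and Cd80 at 1.89 ± 0.274, whose libraries overlap, and then Cd40 at 1.004 ± 0.221 CPM per kilobase. Pdcd1lg2 (0.143 ± 0.0822) and Cd69 (0.108 ± 0.0474 CPM per kilobase) were lowest and overlap each other. With LPS the order turned. Cd274 (359 ± 9.38) and Cd40 (342 ± 25.6 CPM per kilobase), whose libraries overlap, led in WT LPS libraries, followed by Icam1 (256 ± 13.7), Cd44 (107 ± 2.11), Cd72 (61.3 ± 1.20), Cd69 (33.4 ± 2.38), Cd86 (16.0 ± 1.44), Cd80 (3.33 ± 0.262) and Pdcd1lg2 (0.841 ± 0.189 CPM per kilobase), with no overlap between neighbors from Icam1 on.

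**Figure D1:**
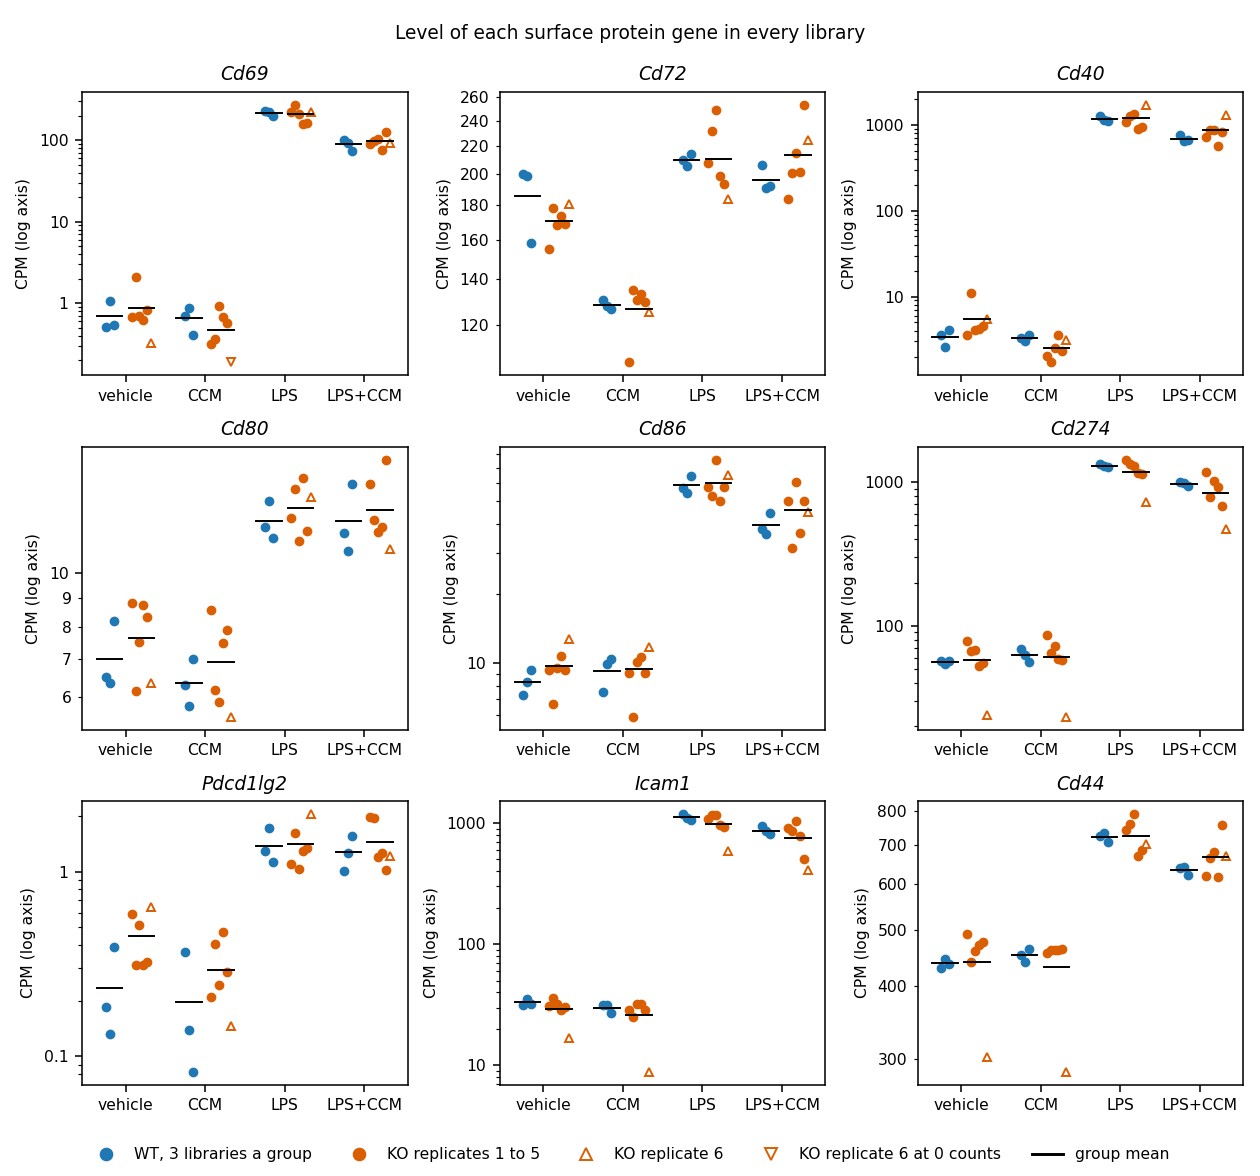
CPM of each gene (log axis) in every library by treatment, with WT in blue, KO in orange, KO replicate 6 as open triangles and the group mean as a line. Cd69 and Cd40 lie at most at 2.09 and 10.9 CPM without LPS and at least at 74.0 and 571 CPM with it, Cd72 is lowest in the CCM libraries, and KO replicate 6 lies below the other KO libraries in all 4 treatments for Cd274 and Icam1.

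LPS raised the costimulatory receptor, both PD-1 ligands, both CD28 ligands, both adhesion genes and Cd69 in both genotypes. In WT, 8 of the 9 genes were called higher, where 30.6% of the 14501 genes tested were called higher and 63% were called in either direction, and in KO all 9 were, against 22.4% and 47.1% of 13648 genes. The median log2 fold change of the 9 genes was 2.81 in WT and 2.61 in KO, beside a median of -0.05 over all genes in each. In KO, where same-numbered libraries deviated together, the replicate block also called all 9, and 9774 genes against 6433. Without KO replicate 6 all 9 were called as well. Dendritic cell markers moved with LPS as well. The summed level of 8 of them was 19.3 to 43.2 CPM in WT vehicle and 60.5 to 90.6 CPM in WT LPS libraries, and 22.2 to 51.1 and 65.3 to 119 CPM in KO. Most of that sum was Fscn1. Ccr7 was at most at 9.61, Xcr1 at 5.34, Clec9a at 2.08, Flt3 at 1.62 and Zbtb46 at 1.62 CPM in any library. Their part in the results was not tested. In such bulk samples a change in the share of cells that make a transcript and a change in transcript per cell cannot be told apart.

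Cd40 had 3.56, 2.61 and 4.09 CPM in the WT vehicle libraries and 1261, 1136 and 1094 CPM with LPS, a log2 fold change of 8.39 (SE 0.14, edgeR adjusted p = 3.41e-11). In KO it had a lowest, median and highest level of 3.61, 4.32 and 10.9 CPM with vehicle and of 880, 1171 and 1698 CPM with LPS, a log2 fold change of 7.77 (SE 0.36, edgeR adjusted p = 1.51e-09). The groups lie far apart in both genotypes, and the single high vehicle library was KO replicate 2.

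Of the CD28 ligands, Cd86 had 7.31, 8.35 and 9.38 CPM in WT vehicle and 56.9, 54.4 and 64.6 CPM in WT LPS libraries, a log2 fold change of 2.81 (SE 0.11, edgeR adjusted p = 7.97e-09), and in KO the log2 fold change was 2.61 (SE 0.16, edgeR adjusted p = 2.38e-08). Cd80 rose from 6.50, 6.36 and 8.18 CPM to 12.05, 13.4 and 11.6 CPM in WT, a log2 fold change of 0.81 (SE 0.14, edgeR adjusted p = 0.000566). In KO its log2 fold change was 0.76 (SE 0.13, edgeR adjusted p = 0.000275). No LPS library of either gene overlapped a vehicle library of its genotype, where 32.9% of the genes tested in WT and 15.7% in KO were higher without overlap.

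Both PD-1 ligands rose, from very different levels. Cd274 had 57.3, 54.4 and 56.9 CPM in WT vehicle and 1338, 1285 and 1275 CPM in WT LPS libraries, a 23.2-fold rise (log2 fold change 4.54, SE 0.06, edgeR adjusted p = 1.70e-11). In KO it had 24.1, 61.2 and 78.1 CPM (lowest, median and highest) with vehicle and 727, 1214 and 1430 CPM with LPS, a log2 fold change of 4.34 (SE 0.27, edgeR adjusted p = 2.42e-08), and the lowest library of both groups was replicate 6. Pdcd1lg2 stayed near the limit of detection. It had 0.184, 0.132 and 0.388 CPM in WT vehicle libraries, which rest on 3 to 13 read pairs each, and 1.30, 1.73 and 1.12 CPM with LPS (22 to 40 read pairs), a log2 fold change of 2.47 (SE 0.42, edgeR adjusted p = 0.000555). In KO its log2 fold change was 1.65 (SE 0.28, edgeR adjusted p = 0.000245).

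Of the adhesion genes, Icam1 rose strongly and Cd44 by 1.66-fold in WT. Icam1 had 31.6, 35.4 and 32.3 CPM in WT vehicle and 1180, 1109 and 1061 CPM in WT LPS libraries, a 33.9-fold rise (log2 fold change 5.08, SE 0.08, edgeR adjusted p = 2.70e-11), and in KO the rise was 33.5-fold (log2 fold change 5.06, SE 0.22, edgeR adjusted p = 7.39e-10). Cd44 was abundant from the start, with 430, 446 and 437 CPM in WT vehicle libraries, and had 726, 734 and 706 CPM with LPS. Its log2 fold change was 0.73 in WT (SE 0.05, edgeR adjusted p = 9.41e-07) and 0.71 in KO (SE 0.11, edgeR adjusted p = 0.000187).

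Cd69, the activation marker, had 0.515, 1.06 and 0.538 CPM in WT vehicle libraries (14 to 24 read pairs) and 230, 221 and 200 CPM with LPS, a log2 fold change of 8.32 (SE 0.16, edgeR adjusted p = 5.73e-11). In KO its lowest, median and highest levels were 0.322, 0.686 and 2.09 CPM with vehicle and 158, 214 and 271 CPM with LPS, a log2 fold change of 7.84 (SE 0.38, edgeR adjusted p = 2.15e-09). Cd72, the inhibitory lectin, changed least. It had 200, 199 and 158 CPM in WT vehicle and 210, 206 and 214 CPM in WT LPS libraries, a log2 fold change of 0.18 (SE 0.08, edgeR adjusted p = 0.0822), although no library overlapped. It was called higher with DESeq2 (adjusted p = 0.0467), with RLE factors (edgeR adjusted p = 0.0494) and without WT vehicle replicate 1 (edgeR adjusted p = 0.0395). In KO it rose from a lowest, median and highest level of 155, 171 and 181 CPM to 184, 203 and 249 CPM (log2 fold change 0.29, SE 0.09, edgeR adjusted p = 0.016), a call that was lost without KO replicate 1, 2 or 3. With library totals alone in place of TMM factors, which moved the median log2 fold change of all genes to -0.47 in WT and -0.44 in KO, that of Cd72 turned to -0.23 in WT, where it was called lower, and to -0.09 in KO. Relative to the median of all genes, Cd72 was higher by 0.24 in WT under either scaling and by 0.34 in KO with TMM. A change of factors shifts all genes by nearly the same amount, so this distance hardly moves and cannot decide the direction of Cd72. The same scaling left 6 of the 9 genes called in KO, without Cd72, Cd80 and Cd44, and turned the split over all genes from 4441 higher and 4698 lower to 2551 and 8060 in WT and from 3060 and 3373 to 1825 and 5708 in KO.

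**Figure D2:**
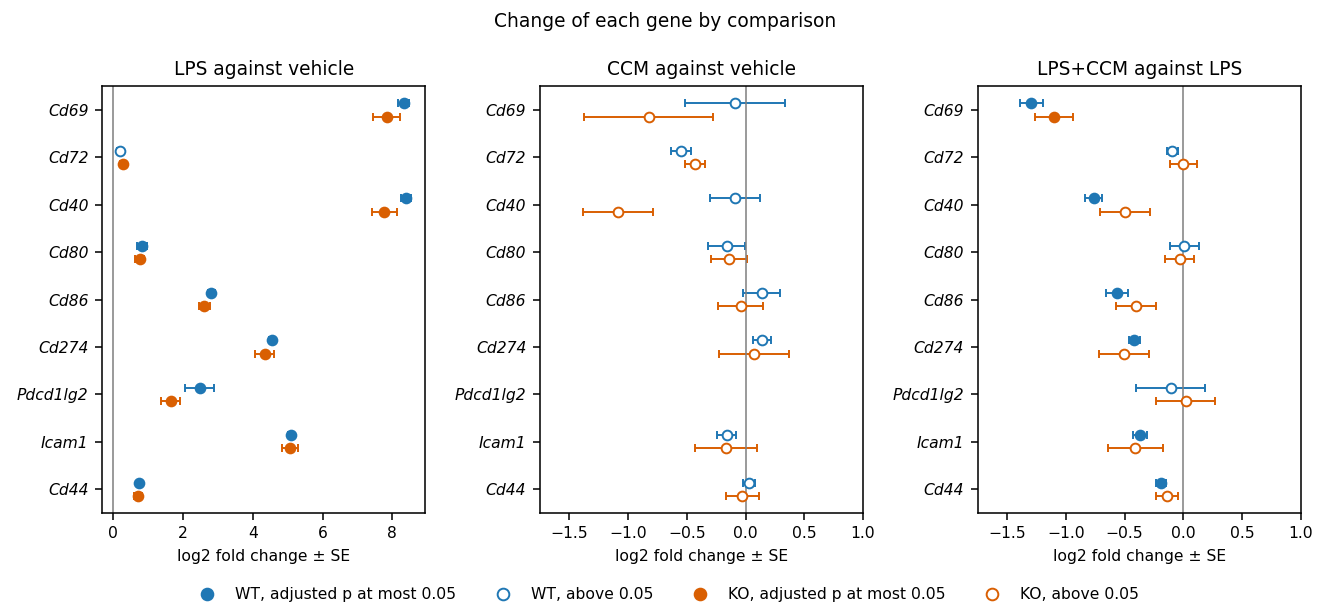
Log2 fold change with its SE of each gene in WT (blue) and KO (orange) for LPS against vehicle, CCM against vehicle and LPS+CCM against LPS, with filled points where the adjusted p was at most 0.05 and a wider axis for LPS. Cd72 is the gene nearest to 0 for LPS and lies at -0.55 and -0.43 for CCM alone, while under LPS the lowest values with CCM are those of Cd69, at -1.29 in WT and -1.10 in KO. Pdcd1lg2 is not drawn for CCM against vehicle because its counts did not pass the filter there.

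In the edgeR fit used throughout, CCM alone moved few genes, and Cd72 was the one of the 9 genes with the smallest p in both genotypes. Other settings called more genes in all, such as 247 in WT with DESeq2 and 299 in KO with limma voom. In WT, 0 of the 8 genes that passed the filter were called by edgeR, where 0.057% of 14024 genes were called. Of the 8 genes, 1, Cd72, had an unadjusted edgeR p under 0.05, as did 1404 of the 14024. DESeq2 called 1 of the 9 genes, Cd72, and limma voom 0. Cd72 had 200, 199 and 158 CPM with vehicle and 130, 128 and 127 CPM with CCM, a log2 fold change of -0.55 (SE 0.08, edgeR adjusted p = 0.0752). All 3 CCM libraries lay below all 3 vehicle libraries, which was also so for 6.5% of all genes tested. The vehicle libraries spread more than the CCM libraries, with replicate 3 the lowest, and without that library Cd72 was called (log2 fold change -0.65, edgeR adjusted p = 0.00634).

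In KO, edgeR likewise called 0 of the 8 genes, and 0% of 13799 genes, with 2 of the 8, Cd72 and Cd40, at an unadjusted p under 0.05. Of the 13799 genes, 333 had such a p. DESeq2, among 24 genes called, and limma voom, among 299, each called 1, Cd72. Its levels were 155, 171 and 181 CPM (lowest, median and highest) with vehicle and 106, 130 and 135 CPM with CCM, a log2 fold change of -0.43 (SE 0.08, edgeR adjusted p = 0.509). The 6 CCM libraries all lay below the 6 vehicle libraries, as did 0.261% of all genes tested. The lowest CCM library was replicate 1, at 106 CPM where the other 5 had 125 to 135 CPM. Same-numbered KO libraries deviated together here, with correlations of 0.338 to 0.842, beside a median of 0.223 between differently numbered ones. Once replicate was fitted as a block, Cd72 was called lower (log2 fold change -0.43, edgeR adjusted p = 0.000469), as 1 of 429 genes called. It was lower by 0.37 to 0.56 on the log2 scale in the 6 same-numbered pairs. As the groups do not overlap, any pairing would put all 6 lower. Without replicate 6 it was called also with no block (log2 fold change -0.42, edgeR adjusted p = 0.0112), where 0.489% of 13899 genes were called lower and 1.01% in either direction.

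Since CD72 is also a surface protein of B cells, their markers were read beside Cd72, which had 106 to 253 CPM over the 36 libraries. Cd79a reached at most 1.31, Ms4a1 0.682, Pax5 0.839, Blk 1.09, Ebf1 4.002 and Cd79b 7.64 CPM in any library. The summed level of the 8 B cell markers was 42.2 to 52.9 CPM in WT vehicle and 43.1 to 50.2 CPM in WT CCM libraries, most of it from Cd22, whose level was 29.6 CPM on average over the 36 libraries. The part of B cells in the level of Cd72 was not tested. In WT LPS libraries this sum was 21.9 to 24.9 CPM.

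Cd40 in KO was low throughout without LPS. It had 3.61 to 5.47 CPM in 5 of the 6 vehicle libraries, 10.9 CPM in replicate 2, and 1.71, 2.42 and 3.59 CPM (lowest, median and highest) with CCM, a log2 fold change of -1.09 (SE 0.29, edgeR adjusted p = 1). These groups do not overlap, by a margin of 3.59 against 3.61 CPM. In WT, the log2 fold change of Cd40 with CCM was -0.09 (SE 0.21, edgeR adjusted p = 0.913). Cd69 in KO had a log2 fold change of -0.82 with CCM (SE 0.55, edgeR adjusted p = 1), and replicate 6 had 0 read pairs on it with CCM, which allows up to 0.218 CPM, by 3 read pairs and for counting error only. For the other 5 genes tested, the log2 fold change with CCM alone lay between -0.16 and 0.14 in WT and between -0.17 and 0.07 in KO. Among these 5, the 95% intervals of Cd44 were the narrowest, from -0.08 to 0.15 in WT and from -0.34 to 0.29 in KO.

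Under LPS, CCM lowered 6 of the 9 genes in WT, where 7.78% of the 13579 genes tested were called lower and 11.9% were called in either direction. These were Cd69, Cd40, Cd86, Cd274, Icam1 and Cd44, which are 6 of the 8 genes that LPS raised, and the comparisons share the LPS libraries. The median log2 fold change of the 9 genes was -0.37, against 0.01 for all genes. With library totals alone, 5 of the 6 were called lower, without Cd44, while the split over all genes turned from 564 higher and 1057 lower to 1539 higher and 733 lower. Same-numbered libraries deviated together here too, and once replicate was fitted as a block the same 6 genes were called, and 3220 genes in all against 1621. These calls rest on the spread of the 6 WT libraries alone. In a fit of all 36 libraries, which share 1 estimate of the spread, 0 of the 9 were called, although for 3 the unadjusted p was below 0.05 and the log2 fold changes were nearly the same (-1.29 for Cd69 and -0.76 for Cd40). Of all 15720 genes in it, 792 had such a p. Without KO replicate 6 in that fit, a choice made after seeing the data, 1 was called, Cd69 (edgeR adjusted p = 0.000971).

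Cd69 was lowered most. It had 230, 221 and 200 CPM in WT LPS and 99.1, 92.8 and 74.0 CPM in WT LPS+CCM libraries, a 2.45-fold lower level (log2 fold change -1.29, SE 0.10, edgeR adjusted p = 4.63e-05). No library overlapped, as for 5 further genes of the 9, where 15.3% of all genes tested were lower without overlap. With LPS+CCM its mean of 88.6 ± 13.1 CPM (SD, n = 3) still lay far above that of the vehicle libraries, 0.704 ± 0.308 CPM.

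Cd40 had 1261, 1136 and 1094 CPM in WT LPS and 753, 641 and 662 CPM in WT LPS+CCM libraries, a 1.70-fold lower level (log2 fold change -0.76, SE 0.07, edgeR adjusted p = 0.000113). Of the CD28 ligands, Cd86 had 56.9, 54.4 and 64.6 CPM with LPS and 38.0, 36.1 and 44.8 CPM with LPS+CCM, a log2 fold change of -0.56 (SE 0.09, edgeR adjusted p = 0.0028). Cd80 had 12.05, 13.4 and 11.6 CPM with LPS and 11.8, 10.9 and 14.4 CPM with LPS+CCM, so its libraries overlap and its log2 fold change was 0.01 with a 95% interval from -0.27 to 0.28.

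Of the PD-1 ligands, Cd274 had 1338, 1285 and 1275 CPM in WT LPS and 996, 989 and 934 CPM in WT LPS+CCM libraries, a log2 fold change of -0.42 (SE 0.04, edgeR adjusted p = 0.000223). Pdcd1lg2 had 1.30, 1.73 and 1.12 CPM with LPS and 1.01, 1.26 and 1.56 CPM with LPS+CCM, a log2 fold change of -0.11 with a 95% interval from -0.76 to 0.55, so that at 17 to 40 read pairs per library a change as large as that of Cd274 was not detectable. Of the adhesion genes, Icam1 had 1180, 1109 and 1061 CPM with LPS and 935, 851 and 810 CPM with LPS+CCM (log2 fold change -0.37, SE 0.06, edgeR adjusted p = 0.00337). Cd44 had 726, 734 and 706 CPM with LPS and 639, 640 and 620 CPM with LPS+CCM, a log2 fold change of -0.19 (SE 0.04, edgeR adjusted p = 0.0134), which was not called without WT LPS replicate 2 (edgeR adjusted p = 0.0689). Cd72, the gene with the smallest p for CCM alone, had 210, 206 and 214 CPM with LPS and 207, 191 and 192 CPM with LPS+CCM, a log2 fold change of -0.09 (SE 0.05, edgeR adjusted p = 0.245).

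**Figure D3:**
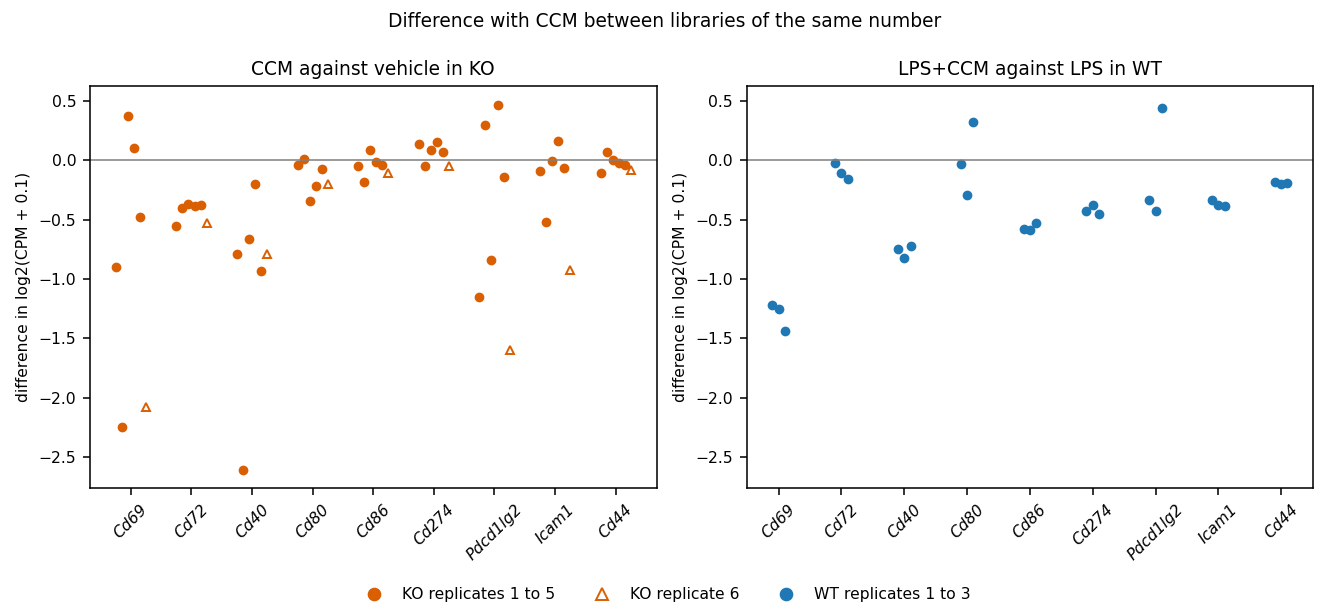
Difference in log2(CPM + 0.1) between libraries of the same replicate number, for CCM against vehicle in KO (left, 6 pairs, replicate 6 as open triangles) and LPS+CCM against LPS in WT (right, 3 pairs), the CCM comparisons in which same-numbered libraries deviated together. Cd72 lies below 0 in 6 of 6 KO pairs on the left and, on the right, Cd69, Cd40, Cd86, Cd274, Icam1 and Cd44 lie below 0 in 3 of 3 WT pairs. The groups of these genes do not overlap in these comparisons, so any pairing would give the same counts.

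In KO, CCM under LPS lowered 1 of the 9 genes, Cd69, where 0.105% of the 13386 genes tested were called lower and 0.112% in either direction. Its lowest, median and highest levels were 158, 214 and 271 CPM with LPS and 76.0, 95.3 and 127 CPM with LPS+CCM, and no library overlapped, as for 0.725% of all genes in that direction. The log2 fold change was -1.10 (SE 0.16, edgeR adjusted p = 0.0179), and between -1.25 and -1.01 with any 1 replicate left out, though Cd69 was not called without replicate 1, 2, 3 or 4 (edgeR adjusted p from 0.0881 to 0.206). It remained called without replicate 6 (edgeR adjusted p = 0.017), where 0.953% of 13429 genes were called lower and 1.27% in either direction, and, as a choice made after seeing the data, without replicates 2, 5 and 6 (edgeR adjusted p = 0.0223).

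The other 5 genes lowered in WT had log2 fold changes of -0.49 (Cd40), -0.40 (Cd86), -0.50 (Cd274), -0.41 (Icam1) and -0.14 (Cd44) in KO, none of them called by edgeR without a block. The unadjusted edgeR p was under 0.05 for Cd40, Cd86 and Cd274, as for 1070 of the 13386 genes tested. Limma voom called Cd40, among 768 genes called. With the replicate block, 777 genes were called against 15, among them Cd40, Cd86, Cd274 and Icam1, each lower in 6 of 6 same-numbered pairs. The numbers were not shown to pair the samples in this comparison. Their 95% intervals were wider than in WT. That of Cd40 ran from -0.95 to -0.04, that of Cd86 from -0.76 to -0.04, that of Cd274 from -0.96 to -0.04 and that of Icam1 from -0.91 to 0.09. The KO libraries overlap for each of these genes. Cd274 had a lowest, median and highest level of 727, 1214 and 1430 CPM with LPS and of 467, 852 and 1174 CPM with LPS+CCM, and Icam1 one of 591, 1022 and 1170 CPM with LPS and of 411, 818 and 1041 CPM with LPS+CCM. For both genes replicate 6 was the lowest in each group and replicate 5 the next lowest with LPS+CCM, at 682 CPM for Cd274 and 505 CPM for Icam1. Cd72, Cd80 and Pdcd1lg2 had log2 fold changes of 0.00, -0.03 and 0.02 in KO.

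Whether the effect of CCM differed between genotypes was tested directly. The genotype by CCM interaction under LPS was called for 0 of the 9 genes and for 0% of 14546 genes, with 0 of the 9 at an unadjusted p under 0.05 by edgeR, and DESeq2 and limma voom called 0. The interaction (the KO log2 fold change minus that of WT) was 0.21 for Cd69 (95% interval from -0.30 to 0.73), 0.29 for Cd40 (from -0.38 to 0.95) and 0.18 for Cd86 (from -0.36 to 0.71), and between -0.07 and 0.15 for the other 6 genes. The calls of Cd40, Cd86, Cd274, Icam1 and Cd44 in WT but not in KO are thus not shown to be a difference between genotypes.

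Between genotypes without CCM, edgeR called 0 of the 9 genes and 0% of all genes both in vehicle (14385 tested) and under LPS (13794 tested), with 0 of the 9 at an unadjusted p under 0.05 in each. DESeq2 and limma voom also called 0 of the 9. Leaving out KO replicate 6 also gave 0 of the 9 in both, as in the genotype by CCM interaction. The log2 fold changes of KO against WT lay between -0.17 and 0.85 in vehicle and between -0.18 and 0.08 under LPS. The largest after that of Pdcd1lg2, which rests on few read pairs, was that of Cd40 in vehicle, 0.68 (95% interval from -0.14 to 1.49), a value that includes replicate 2 at 10.9 CPM. The genotype by LPS interaction was likewise called for 0 of 9 genes (0% of 15093 genes, 0 at an unadjusted p under 0.05, and 0 by DESeq2 and limma voom), with values between -0.82 and 0.13. Without KO replicate 6 this interaction was called for 0 of the 9 as well.

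Whether CCM acted differently with and without LPS was tested as an interaction within WT, on 12 libraries. It was called for 2 of the 9 genes, against 2.09% of 14747 genes, with opposite signs. Over all genes 69 were called higher and 239 lower, and 230 and 117 with library totals alone, which called the same 2 of the 9. For Cd72 it was 0.44 (SE 0.11, edgeR adjusted p = 0.0486), since the log2 fold change with CCM was -0.55 without and -0.09 with LPS. For Cd274 it was -0.57 (SE 0.09, edgeR adjusted p = 0.00716), from 0.14 without to -0.42 with LPS. The call of Cd72 was lost without 11 of the 12 libraries taken singly (edgeR adjusted p from 0.0778 to 0.119) and with RLE factors (edgeR adjusted p = 0.0579), and kept without vehicle replicate 3, whereas that of Cd274 was kept without any 1 of the 12. Among the genes not called, the interaction was -1.24 for Cd69 (SE 0.41), -0.71 for Cd86 (SE 0.18), -0.67 for Cd40 (SE 0.18) and -0.23 for Cd44 (SE 0.06), with edgeR adjusted p between 0.0547 and 0.158. DESeq2 called these 4 as well, among 696 genes called where edgeR called 308. With all 36 libraries in 1 fit edgeR called 0 of the 9, while the unadjusted p of 2 of them was under 0.05, as for 323 of 15720 genes. In KO edgeR called 0 of the 9 genes (0.00685% of 14588 genes), as did DESeq2 and limma voom. There 1 of the 9 had an unadjusted edgeR p under 0.05, as did 536 of the 14588 genes. The interaction of Cd72 in KO was 0.45 (95% interval from 0.18 to 0.72, edgeR adjusted p = 0.989). Without KO replicate 6 edgeR called 0 of the 9, and 10 of 14609 genes.

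Further costimulatory and checkpoint genes, adhesion partners and components of CD40 signaling were examined as 3 lists. Of 25 further costimulatory and checkpoint genes, 22 passed the filter, and LPS raised 13 and lowered 6 of them in WT and raised 12 and lowered 6 in KO, with a median log2 fold change of 1.35 and 1.08. Of all genes tested, 30.6% were called higher and 32.4% lower in WT and 22.4% and 24.7% in KO, which is the background for all 3 lists. The share of the 22 genes called lower lies near it. Tnfsf4, the OX40 ligand, rose from 0.243 ± 0.118 to 13.1 ± 0.999 CPM in WT (SD, n = 3), a log2 fold change of 5.81 (SE 0.26, edgeR adjusted p = 2.44e-08), and Tnfsf9, the 4-1BB ligand, from 1.09 ± 0.225 to 14.7 ± 1.54 CPM (3.74, SE 0.18). Havcr2, which encodes the checkpoint receptor TIM-3, fell from 41.9 ± 1.20 to 3.98 ± 0.344 CPM in WT (log2 fold change -3.39, SE 0.09, edgeR adjusted p = 4.93e-10), and Vsir, which encodes VISTA, an inhibitory protein of the B7 family, from 558 ± 22.6 to 71.4 ± 3.53 CPM (-2.96, SE 0.07). The same 4 genes led their directions in KO, with log2 fold changes of 6.07, 3.98, -3.10 and -3.04.

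Under LPS, CCM raised 3 and lowered 10 of the 22 genes in WT (median -0.17), where 4.15% of all genes were called higher and 7.78% lower. As for the 9 genes, these calls rest on the WT libraries alone. With all 36 libraries in 1 fit none of the genes named from the 3 lists for this comparison was called. Cd83, a surface protein of activated antigen-presenting cells, was 28.1 ± 3.43 CPM with LPS and 14.2 ± 1.85 CPM with LPS+CCM (log2 fold change -0.98, SE 0.11, edgeR adjusted p = 0.00039), and Tnfsf14 (LIGHT) 2.27 ± 0.353 and 0.902 ± 0.216 CPM (-1.32, SE 0.28, edgeR adjusted p = 0.013). Vsir rose from 71.4 ± 3.53 to 88.7 ± 8.03 CPM (0.31, SE 0.07, edgeR adjusted p = 0.0173) and Cd200r1, an inhibitory receptor of myeloid cells, from 63.5 ± 1.94 to 75.4 ± 6.78 CPM (0.25, SE 0.07, edgeR adjusted p = 0.04), a call lost in 7 of 14 alternatives. In the interaction of LPS and CCM in WT, Cd83 was also called (-0.87, SE 0.16, edgeR adjusted p = 0.012), as were Slamf7 (-0.58) and Sirpa (0.29), whose calls were lost in 10 and 15 of 20 alternatives.

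Of the 18 adhesion partners, LPS raised 11 and lowered 2 in WT and raised 9 and lowered 1 in KO (median log2 fold changes 0.71 and 0.62). Itgal, the alpha chain of the ICAM-1 receptor LFA-1, rose from 410 ± 15.7 to 1621 ± 129 CPM in WT (1.99, SE 0.07, edgeR adjusted p = 5.96e-09), and Itga4 from 72.3 ± 7.38 to 302 ± 33.1 CPM (2.07, SE 0.10), while Icam2 fell from 7.56 ± 1.37 to 3.73 ± 0.593 CPM and Itgam from 117 ± 4.52 to 94.7 ± 9.64 CPM (-0.30, SE 0.08). In KO, Vcam1 (1.96, SE 0.22) and Itga4 (1.95, SE 0.34) rose most and Itgam fell (-0.28, SE 0.10). CCM under LPS lowered 4 of the 18 in WT and raised 0, among them Vcam1, a ligand of alpha4 integrins, from 230 ± 16.4 to 158 ± 17.98 CPM (-0.54, SE 0.08, edgeR adjusted p = 0.00201), and F11r from 18.7 ± 0.727 to 14.8 ± 1.47 CPM (-0.34, SE 0.09, edgeR adjusted p = 0.0365). The call of F11r was lost in 8 of 14 alternatives.

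Of the 14 CD40 signaling genes, LPS raised 13 and lowered 1 in WT and raised 11 and lowered 0 in KO (median log2 fold changes 1.38 and 1.29). Traf1, an adaptor of TNF receptors, rose from 3.17 ± 0.704 to 330 ± 28.8 CPM in WT (6.68, SE 0.14, edgeR adjusted p = 8.86e-11) and Nfkb2 from 48.5 ± 1.78 to 815 ± 29.3 CPM (4.08, SE 0.06), and Map3k14, which encodes the kinase NIK, was the 1 called lower (-0.28, SE 0.11, edgeR adjusted p = 0.0433). That call was lost in 9 of 13 alternatives, DESeq2 and limma voom among them. CCM under LPS lowered 6 and raised 1 of them in WT (median -0.13). Nfkb2 fell to 613 ± 20.3 CPM (-0.41, SE 0.05, edgeR adjusted p = 0.000296) and Cyld, a deubiquitinase that restrains NF-kB signaling, from 86.9 ± 5.76 to 67.4 ± 3.27 CPM (-0.36, SE 0.06, edgeR adjusted p = 0.00466), while Map3k14 rose from 16.9 ± 1.44 to 21.8 ± 0.961 CPM (0.37, SE 0.08, edgeR adjusted p = 0.0177), a call lost in 5 of 14 alternatives. Both Nfkb2 (-0.38, SE 0.07) and Cyld (-0.38, SE 0.09) were also called in the interaction of LPS and CCM in WT, and these calls were lost in 7 and 12 of 20 alternatives.

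In KO, CCM under LPS changed 0 genes of the 3 lists by edgeR, with 5, 2 and 1 at an unadjusted p under 0.05 in the order of the lists above. Of all 13386 genes tested, 1070 had such a p. DESeq2 called 1, 0 and 0 genes of the lists lower, and limma voom 2, 0 and 4. Over all genes these tools called 135 and 497 lower. With CCM alone edgeR called 0 of the 3 lists in both genotypes, with 5, 2 and 1 at an unadjusted p under 0.05 in WT and 1, 0 and 0 in KO. Over all genes, 1404 of 14024 in WT and 333 of 13799 in KO had such a p. DESeq2 called 1 of the first list lower in WT, where it called 109 of all genes lower, and none besides, and limma voom 0.

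The genes whose log2 CPM followed each of the 9 most closely over the 36 libraries were read out as a description, among 11177 further genes with a mean log2 CPM of at least 1 (11178 for Pdcd1lg2, itself below that level). The points share the treatments, and LPS alone separates most of them. Highest were AW112010 and Zbp1 for Cd40 (Pearson's r = 0.998 and 0.997), Ifih1 and Plek for Icam1 (0.997 each), Cflar and Lcp2 for Cd274 (0.997 and 0.996), and Gpr84 and Aida for Cd69 (0.995 and 0.994). Cd86 was followed most closely by Gpr132 and Marcksl1 (0.984 and 0.983), Cd44 by Aftph and Pafah1b2 (0.980 and 0.975), Cd80 by Plpp1 and Flrt3 (0.948 and 0.947) and Pdcd1lg2 by Rnd1 and Slc13a3 (0.924 and 0.922). For Cd72 the values were lowest, 0.894 with Cyp51, an enzyme of cholesterol synthesis, and 0.878 with Evi2a. Among the 9 genes, Cd274 and Icam1 were the most alike (r = 0.995).

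KO replicate 6, the replicate that stood apart, lay below the other 5 KO replicates under all 4 treatments for Cd274 and Icam1. Its Cd274 level was 35.9, 35.8, 56.8 and 50.9% of their median with vehicle, CCM, LPS and LPS+CCM, and its Icam1 level 55.5, 30.8, 54.9 and 48.2%. Cd44 was at 64.3 and 61.8% with vehicle and CCM and within the range of the others with LPS (94.6%) and LPS+CCM (101%). Cd40, by contrast, was above the others with LPS (1698 CPM against 880 to 1322) and LPS+CCM (1310 CPM against 571 to 875), and Cd86 was above them with vehicle and CCM (135 and 130%). The difference in log2(CPM + 0.1) between the same-numbered LPS and vehicle libraries of replicate 6 was 5.11 for Icam1, within the 4.95 to 5.18 of the other KO pairs, and 4.91 for Cd274, above their 4.19 to 4.43.

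**Figure D4:**
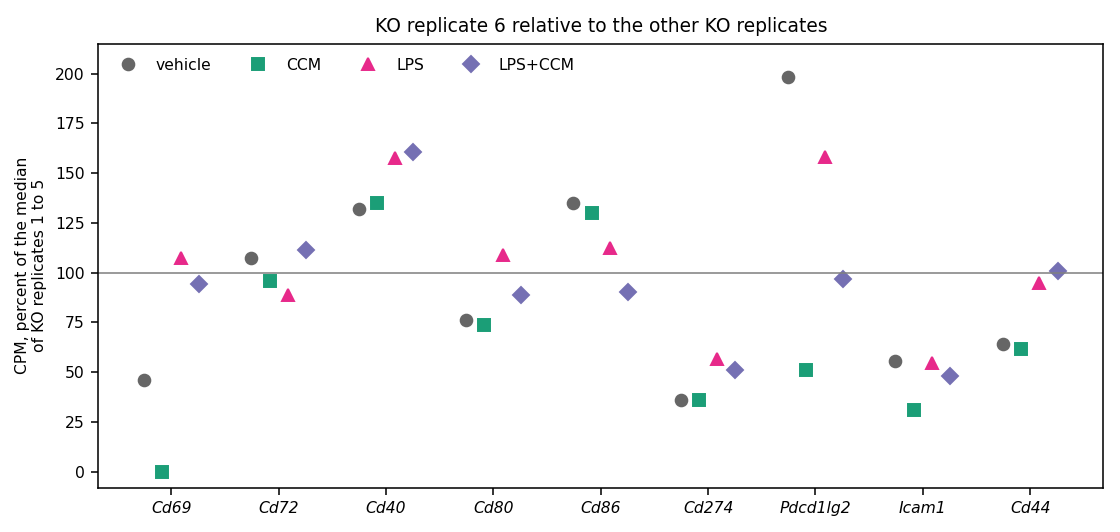
CPM of each gene in KO replicate 6 as a percent of the median of KO replicates 1 to 5, by treatment, with a line at 100%. Cd274 (35.8 to 56.8%) and Icam1 (30.8 to 55.5%) are low under all 4 treatments, Cd40 is at 132 to 161%, Cd44 is low only without LPS, and the values of Cd69 without LPS and of Pdcd1lg2 rest on few read pairs, with Cd69 at 0 with CCM.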

How the data were processed

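Poly(A) RNA of 36 BMDM cultures was sequenced paired-end. Per the labels and the submitters' processing notes, the authors trimmed reads with fastp, aligned them to mm10 with HISAT2 2.0.5 and obtained gene-level counts of read pairs from featureCounts 1.5.0-p3; the strand setting is not given in the sources used here. The deposited values are raw counts of 54532 genes, all of whose 36 sample columns were used (unused per-sample columns: 0). Every comparison was fitted with edgeR 4.0.16 in R 4.3.3 on the counts of its own groups (filterByExpr, TMM factors, quasi-likelihood test), with Benjamini-Hochberg adjustment over all genes tested and a threshold of 0.05. The fit was also run on simulated counts drawn independently for each library. That run cannot speak to an outlying replicate such as KO replicate 6 or to libraries that deviate together. Totals of 13469262 to 28288923 read pairs set the counting error, and limits and intervals cover counting error or the spread between libraries only. The study gives its n as 3 WT and 6 KO mice; whether a replicate number stands for the same mouse under each treatment is not given in the sources used here. No libraries of a group agreed within sampling noise.

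Alternatives were DESeq2 1.42.0, limma voom with quality weights (limma 3.58.1), RLE factors, library totals alone, no filter beyond 1 count, all 36 libraries in 1 fit, the replicate block, and single libraries or KO replicates left out. The labels number the replicates, and the pairing was taken from the data: same-numbered libraries deviated from their group means together, with every correlation over 0.1, for LPS and for CCM against vehicle in KO (0.299 to 0.829 and 0.338 to 0.842) and for LPS+CCM against LPS in WT (0.151 to 0.359), and not in the other comparisons. Differently numbered libraries had a median correlation of 0.173 and 0.223 in KO, above that bar, and of -0.132 in WT. In KO, passing the bar thus does not by itself show that a number pairs libraries. The same numbers were read as pairs in some comparisons and not in others. Calls with the block are alternatives to the fits without it. The named genes are all 9 members, Arntl, up to 2 called genes with the largest change in each direction from each related list, and the 2 genes most correlated with each member over the libraries. Members and lists were chosen with earlier results of these data known. Promoters are from RefSeq (GRCm38.p6), matched by symbol, and their starts can differ from the gene starts of the count table. The level of 1 marker gene is not reported here.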

Additional observations from a re-analysis of the deposited data

Results flagged for a closer look

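Of 36 KO groups of 6 libraries tested for a sample far from the others (Dixon's test), 6 had one, where chance alone gives about 1 in 20, or 1.8. The tests of the 9 genes share the same libraries and are not independent, so the count of 6 does not measure an excess over 1.8. In KO replicate 2 with vehicle, Cd69 was at 2.09 CPM and Cd40 at 10.9 CPM, both above the other 5 libraries. In KO replicate 6, Icam1 was at 8.87 CPM with CCM and Cd44 at 302 CPM with vehicle and 285 CPM with CCM, each below the other 5. In KO replicate 1 with CCM, Cd72 was at 106 CPM, below the other 5.

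The effect of CCM differed with and without LPS in WT, by a test of the interaction in edgeR's quasi-likelihood fit, for Cd274 (-0.57 on the log2 scale, adjusted p = 0.00716) and for Cd72 (0.44, adjusted p = 0.0486). The call of Cd72 was lost in 14 of 20 alternatives, RLE factors and 11 of the 12 single libraries left out among them, and that of Cd274 in both joint fits.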

How the results depend on the processing

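Of the counts of genes called among the 9 under all alternatives, 150 lay within 1.5 times the reported count and 33 did not. For CCM in WT the count of 0 became 1 with DESeq2, with no filter, and with the replicate block (where the numbers were not shown to pair the samples), and 0 to 1 with 1 library left out. In KO the 0 for CCM became 1 with DESeq2, limma voom, all 36 libraries in 1 fit and the replicate block, and 0 to 1 with 1 replicate left out; each time the gene was Cd72. For LPS+CCM against LPS in WT the 6 became 0 with all 36 libraries in 1 fit and 1 without KO replicate 6 in that fit, and 5 to 6 with 1 library left out. In KO the 1 became 2 with limma voom, 5 with the replicate block (Cd69, Cd40, Cd86, Cd274 and Icam1, each lower in 6 of 6 same-numbered pairs, with numbers not shown to pair the samples here), and 0 to 1 with 1 replicate left out. For Cd69, whose groups do not overlap, any pairing would give 6 of 6. With the block 777 of all genes were called in this comparison, against 15. For the interaction of LPS and CCM in WT the 2 became 0 in both joint fits, 6 with DESeq2, 5 with no filter, 5 with the replicate block, and 1 to 4 with 1 library left out. The causes were not tested. The block changed no other count by over 1.5 times.

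Directions turned mostly where values were near 0. With library totals alone, Cd72 for LPS was -0.23 in WT and -0.0898 in KO, and for LPS+CCM against LPS in KO Cd72 was 0.0228 and Cd80 0.00463. For the latter comparison Cd72 was also 0.0175 with all libraries in 1 fit and 0.00354 with no filter. For CCM alone, Cd86 in KO was 0.0237 with limma voom. Under LPS+CCM in WT, Cd80 was -0.0659 with limma voom, -0.000698 with RLE factors and -0.00524 in the joint fit without KO replicate 6. With 1 library or replicate left out, log2 values ranged from -0.35 to 0.30 for Cd69 (CCM against vehicle in WT), -0.24 to 0.0685 for Cd40 (CCM against vehicle in WT), -0.12 to 0.0865 for Cd80 (LPS+CCM against LPS in WT), -0.28 to 0.0894 for Pdcd1lg2 (LPS+CCM against LPS in WT), -0.0756 to 0.0479 for Cd72 (LPS+CCM against LPS in KO), -0.12 to 0.0398 for Cd80 (LPS+CCM against LPS in KO), -0.15 to 0.20 for Pdcd1lg2 (LPS+CCM against LPS in KO), -0.37 to 1.02 for Pdcd1lg2 (interaction of LPS and CCM in WT). All-gene counts also moved. With DESeq2, CCM called 247 genes in WT where edgeR called 8, and 24 in KO where edgeR called 0, or 141 once KO replicate 6 was left out; LPS+CCM against LPS in KO called 180 with DESeq2, 768 with limma voom and, by edgeR without KO replicate 6, 170, against 15; and in WT, all 36 libraries in 1 fit called 17 against 1621.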
